A study of Mus musculus with 8 samples.

Results

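The transcripts described here are those of 10 checkpoint and costimulatory ligands, surface or secreted molecules through which a tumour cell or an antigen-presenting cell speaks to a T cell. They were chosen by name, and all 10 were found among the 14133 genes of the deposited table and among the 14006 genes tested. RNA was sequenced from subcutaneous tumours of CT26, a mouse colon carcinoma cell line, grown in male BABL/C mice labelled wild type. The control group holds 4 tumours from mice that received PBS, and the propranolol group 4 tumours from mice injected once a day into the peritoneum with propranolol, which blocks beta-adrenergic receptors. Per the labels' protocols, dosing began when tumours reached 70 to 100 mm3. The sources used here give neither the dose nor when tumours were taken. The titles number 4 samples in each group, while the series' design text speaks of duplicates; the 4 were used as replicates, and whether some share a source was not tested. No label ties each tumour to a mouse of its own, so p-values reflect only how much these samples spread, which may be technical. T cell exhaustion is in the title of the series, and the comparison asks whether the ligands that feed this state differ between the groups.

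T cells need a costimulatory signal beside the antigen. CD80 and CD86 give it through CD28, and also bind the inhibitory receptor CTLA-4. Other ligands mainly restrain T cells that have already been activated: PD-L1 and PD-L2 bind PD-1, and PVR and nectin-2 are bound by the inhibitory receptor TIGIT and by the activating receptor CD226. Galectin-9 has been described as a ligand of TIM-3 and galectin-3 as a ligand of LAG-3, VISTA acts both as a ligand and as a receptor, and the receptor of B7-H3 is not settled. In tumours, PD-L1 is known to be induced by interferon gamma, which T cells and NK cells release.

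Library totals ranged from 15483409 to 17511937 counts. Levels are given as CPM, counts scaled to a common library size after TMM normalisation, or, where genes are compared with each other, as the deposited FPKM, which is also per gene length. In bulk tissue, fewer cells of a type and less RNA per cell cannot be told apart. Of 12 colon epithelial markers, 4 were tested (Cdh1, Krt8, Krt18 and Krt20), and Epcam, Cdx2 and Vil1 were among the 8 that were not. Summed T cell marker transcripts lay between 43.9 and 109 CPM in control tumours and between 38.4 and 341 CPM in propranolol tumours. Control tumour 4 held skeletal muscle transcripts, with the summed list reaching 801 CPM there and 69.8 CPM at most in the propranolol group.

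For orientation, the 250 bases before the transcription start are shown for 3 ligand genes: Cd274 and Vsir, whose levels followed the T cell and interferon gamma lists most closely, and Lgals9, the only one of the 8 ligand genes searched with a match to the interferon-stimulated response element. The motifs and these 3 genes were chosen after the values were seen. The sequences are RefSeq's for GRCm38.p6, a C57BL/6J assembly and not the strain of these mice. Cd274 is chr19:29367188-29367437 on the plus strand, Vsir is chr10:60346601-60346850 on the plus strand and Lgals9 is chr11:78984925-78985174 on the minus strand. Capitals mark GGGCGG (a GC box, either strand) in Cd274 and Vsir, and the response element, GAAA followed after 2 bases by GAAA (either strand), in Lgals9.
Cd274: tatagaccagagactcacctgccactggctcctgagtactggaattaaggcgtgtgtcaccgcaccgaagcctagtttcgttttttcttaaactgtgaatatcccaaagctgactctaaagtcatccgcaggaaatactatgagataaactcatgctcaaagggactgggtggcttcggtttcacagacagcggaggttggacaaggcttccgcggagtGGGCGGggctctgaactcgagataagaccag
Vsir: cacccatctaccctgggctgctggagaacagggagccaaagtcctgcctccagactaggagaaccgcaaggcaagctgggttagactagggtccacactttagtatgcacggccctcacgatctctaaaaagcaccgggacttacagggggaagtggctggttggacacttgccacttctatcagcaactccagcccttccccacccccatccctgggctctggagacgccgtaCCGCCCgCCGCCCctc
Lgals9: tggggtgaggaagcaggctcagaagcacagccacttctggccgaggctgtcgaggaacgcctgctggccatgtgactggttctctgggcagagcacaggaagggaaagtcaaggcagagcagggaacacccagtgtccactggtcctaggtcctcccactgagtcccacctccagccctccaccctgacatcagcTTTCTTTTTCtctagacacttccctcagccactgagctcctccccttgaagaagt

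Promoters were on hand for 8 of the 10 genes, all but Cd86 and Pvr, and 9 motifs were searched on both strands in windows of the same length for 32851 transcription starts. The interferon-stimulated response element was found in Lgals9, 55 bases before the start, and in 2.98% of all windows. The gamma-activated site TTCNNNGAA (7.02% of all windows), the cAMP response element TGACGTCA (1.55%), the E-box CACGTG (6.02%) and an NF-kB site, GGG followed after 4 bases by TTCC (4.19%), were found in 0 of the 8. GGGCGG was found in Nectin2, Cd276, Vsir, Lgals3 and Cd274, 5 of the 8, and in 32.7% of all windows. The AP-1 site TGANTCA was found in Cd80 (6.75% of all windows) and the ETS site CCGGAAGT in Nectin2 (2.88%). NCGTG was found in Nectin2, Vsir, Lgals3 and Cd274 (55.4% of all windows). It allows any base before CGTG, while the core bound by hypoxia-inducible factors has A or G there. GCGTG, which fits that core, was among the matches in Nectin2, Lgals3 and Cd274. The Vsir matches, CACGG and CACGA, read CCGTG and TCGTG on the other strand and are not that core. Each E-box match also holds NCGTG.

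Per gene length, galectin-3 was the most abundant of the 10 transcripts and PD-L2 the least. Lgals3 stood at 179 ± 34.1 FPKM (SD over the 8 tumours), and Lgals9 followed at 41.0 ± 9.08 FPKM, with Lgals3 the higher in 8 of 8 tumours. Pvr at 19.0 ± 6.72 FPKM lay below Lgals9 in 8 of 8 tumours. Pvr and Cd274 (16.4 ± 13.9 FPKM) exchanged places between tumours, Pvr being the higher in 5 of 8. Cd274 was above Vsir (10.8 ± 3.58 FPKM) in 5 of 8 tumours, and Vsir above Nectin2 (9.63 ± 1.5 FPKM) in 4 of 8, so these neighbours did not differ beyond their spread. Nectin2 was above Cd276 (6.46 ± 1.7 FPKM) in 7 of 8 tumours. Cd276 was above Cd80 (5.52 ± 0.402 FPKM) in 6 of 8 and Cd80 above Cd86 (3.14 ± 1.14 FPKM) in 7 of 8. Pdcd1lg2 at 1.31 ± 1.19 FPKM was below Cd86 in 8 of 8 tumours.

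For none of the 10 ligands did the difference between propranolol and control tumours pass the test against the spread within the groups. With edgeR's quasi-likelihood F test and Benjamini-Hochberg adjustment over all tested genes, 0 of 10 passed 0.05 (each adjusted p = 0.999), against 0% of all tested genes in either direction. At an unadjusted p under 0.05 the test gave 0 of the 10 ligands and 1.95% of all genes, and DESeq2's Wald test gave Pdcd1lg2 and Lgals3, against 2.39% of all genes. Fitted log2 fold changes were above 0 for 5 ligands and below 0 for 5, where 49.4% of all genes were above 0, and the median was 0.08 for the ligands and -0.002 for all genes. In 0 of the 10 ligands did the groups separate completely, which 1.63% of all genes did. A change of at least 1.5-fold in size was fitted for 2 ligands, Cd274 and Pdcd1lg2, and for 6.32% of all genes. The authors' deposited table marks 0.792% of its genes as up or down. Pdcd1lg2 is among them, although its adjusted p there is far above 0.05. The deposited log2 fold changes differ from those of the DESeq2 fit here by at most 3.43e-10. The mark and the DESeq2 result for Pdcd1lg2 are therefore not separate observations.

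**Figure D1:**
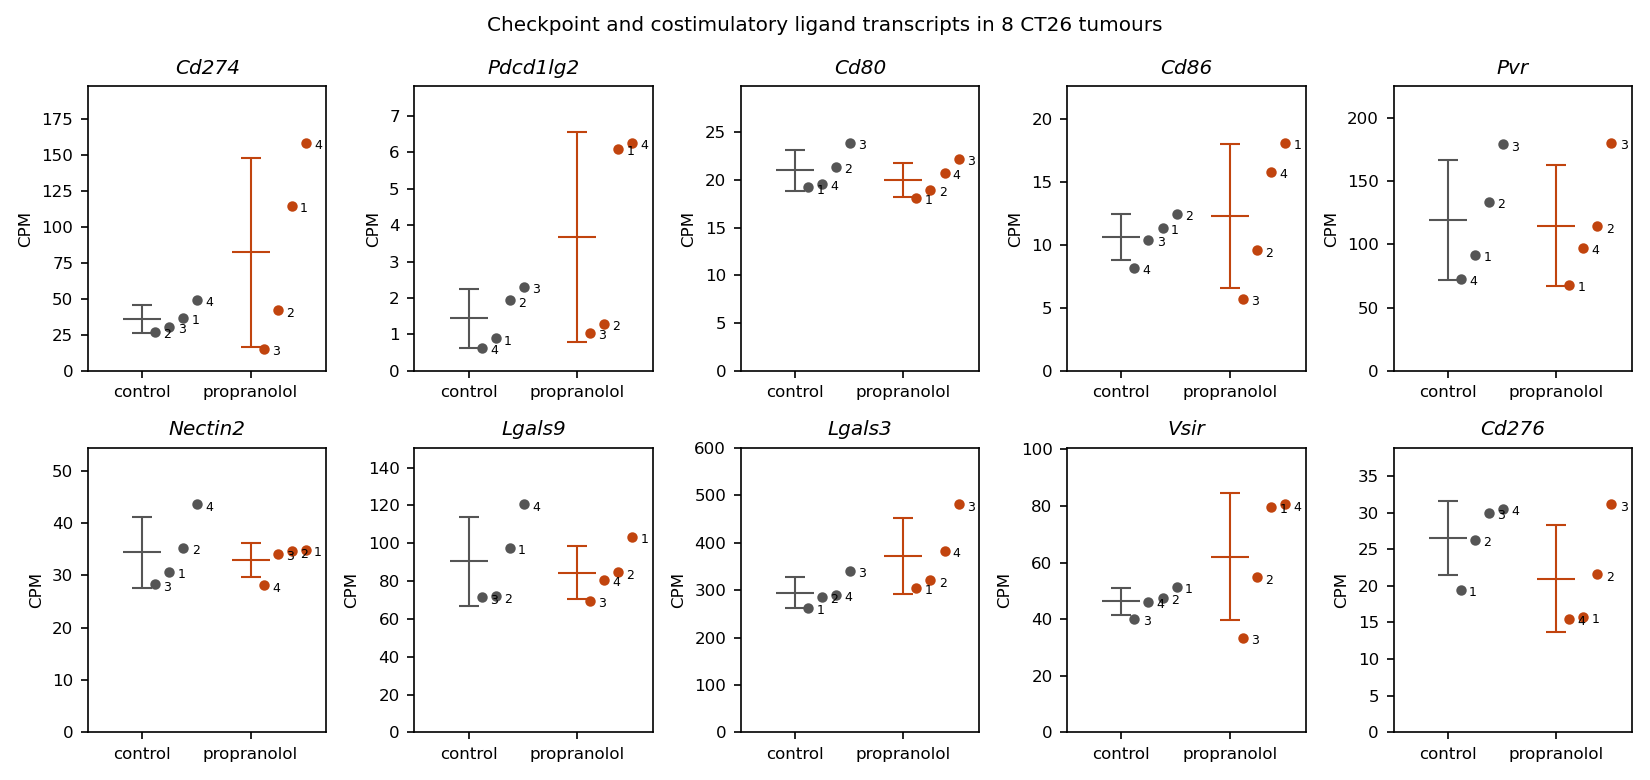
CPM of each ligand transcript in the 4 control (grey) and 4 propranolol (orange) tumours; points are tumours with their number, the horizontal mark is the group mean and the bar 1 SD. Propranolol tumours 1 and 4 are the highest for Cd274, Pdcd1lg2, Cd86 and Vsir, and propranolol tumour 3 is the highest for Pvr, Lgals3 and Cd276.

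PD-L1 and PD-L2, the ligands of PD-1, had the largest fitted differences of the 10, and propranolol tumours 1 and 4 held the most of both transcripts. Cd274, which encodes PD-L1 (ENSMUSG00000016496, GRCm39 chromosome 19 from 29344855 to 29365495), stood at 36.8, 27.1, 30.4 and 49.5 CPM in control tumours 1 to 4 and at 114, 41.9, 15.2 and 158 CPM in propranolol tumours 1 to 4. Propranolol tumours 1 and 4 were above every control tumour, propranolol tumour 2 lay within the control range and propranolol tumour 3 was the lowest of all 8. The log2 fold change was 1.20 (SE, the standard error, 0.65; edgeR, adjusted p = 0.999), and it was 0.67 without propranolol tumour 4. Cd274 spanned 10.4-fold from its lowest to its highest tumour, and its coefficient of variation was 27.5% in control and 79.6% in propranolol tumours.

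Pdcd1lg2, the gene of PD-L2 (ENSMUSG00000016498), begins 22.8 kb after the end of Cd274 on the same strand. It stood at 0.891, 1.93, 2.30 and 0.633 CPM in control tumours 1 to 4 and at 6.10, 1.3, 1.05 and 6.26 CPM in propranolol tumours 1 to 4. Again propranolol tumours 1 and 4 were above every control tumour while propranolol tumours 2 and 3 were inside the control range. Its log2 fold change was 1.35 (SE 0.67; edgeR, adjusted p = 0.999), with 11 to 108 counts per tumour, so counting error is larger here than for the other ligands. In the authors' deposited table the log2 fold change is 1.36 with an unadjusted p of 0.0381 and an adjusted p of 0.9997. In the fit with replicate number as a block, it was 1.08 (SE 0.94). Both PD-1 ligand genes overlap a long noncoding RNA on the opposite strand, Gm36043 for Cd274 (45 to 365 counts) and A930007I19Rik for Pdcd1lg2 (21 to 70 counts), and no source used here says whether strand was used in counting.

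CD80 and CD86, the ligands of CD28 and CTLA-4, were fitted within a fraction of their standard errors of no difference. Cd80 (ENSMUSG00000075122) was the steadiest of the 10, with 19.2, 21.3, 23.9 and 19.6 CPM in control tumours 1 to 4 and 18.1, 19.0, 22.2 and 20.7 CPM in propranolol tumours 1 to 4. Its range over all tumours was 1.32-fold and its log2 fold change -0.07 (SE 0.12). Cd86 (ENSMUSG00000022901) ranged over 3.16-fold, with 11.4, 12.5, 10.4 and 8.17 CPM in control and 18.1, 9.58, 5.73 and 15.9 CPM in propranolol tumours 1 to 4. Propranolol tumours 1 and 4 were above, and propranolol tumour 3 below, every control tumour, so that the propranolol group enclosed the control group. The log2 fold change of Cd86 was 0.22 (SE 0.33), and it turned to -0.03 without propranolol tumour 1.

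PVR and nectin-2, the ligands of TIGIT and CD226, differed between the groups by less than their standard errors. Pvr (ENSMUSG00000040511, GRCm39 chromosome 7 from 19637503 to 19655085) stood at 91.4, 133, 179 and 72.9 CPM in control tumours 1 to 4 and at 67.9, 114, 180 and 97.1 CPM in propranolol tumours 1 to 4. Tumour 3 was the highest in both groups, and both groups covered nearly the same range. Its log2 fold change was -0.05 (SE 0.36) and turned sign without control tumour 3 (0.22), without propranolol tumour 1 (0.13), without propranolol tumour 4 (0.02) and without control tumour 2 (0.00 after rounding). Nectin2 (ENSMUSG00000062300), which lies 153 kb from Pvr, was between 28.3 and 43.5 CPM in the control group and between 28.1 and 34.9 CPM in the propranolol group, a log2 fold change of -0.06 (SE 0.15). Its highest value was in control tumour 4, the tumour with skeletal muscle transcripts, and the fold change was 0.07 without that tumour and 0.01 without propranolol tumour 4.

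The galectin genes encode secreted sugar-binding proteins. Lgals3, galectin-3 (ENSMUSG00000050335), stood at 263, 286, 341 and 289 CPM in control tumours 1 to 4 and at 304, 320, 480 and 382 CPM in propranolol tumours 1 to 4. Propranolol tumours 3 and 4 were above every control tumour, and propranolol tumours 1 and 2 were below control tumour 3. The log2 fold change was 0.33 (SE 0.15; edgeR, unadjusted p = 0.0535, adjusted p = 0.999), and without propranolol tumour 3 it was 0.19. Lgals3 was higher in the propranolol tumour of 4 of the 4 number pairs, by 0.16 to 0.50 on the log2 scale. Number pairs are tumours with the same number, which no label ties together. With the replicate block the fit gave 0.32 (SE 0.10) with an unadjusted p of 0.0107 and an adjusted p of 0.929, so it did not pass either way. That fit brought 5.12% of all genes under an unadjusted p of 0.05, among the ligands Lgals3 and Cd276.

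Lgals9, galectin-9 (ENSMUSG00000001123), ranged from 71.4 to 121 CPM in the control group and from 69.7 to 103 CPM in the propranolol group, and the fitted log2 fold change was -0.10 (SE 0.19). Control tumour 4 was its highest tumour, and without it the fold change was 0.07. Neither sign held over the leave-out fits.

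VISTA and B7-H3 belong to the wider B7 family, as PD-L1 does. Vsir, the gene of VISTA (ENSMUSG00000020101), stood at 51.5, 47.5, 40.1 and 46.1 CPM in control tumours 1 to 4 and at 79.7, 54.8, 33.5 and 80.6 CPM in propranolol tumours 1 to 4. In 3 of 4 propranolol tumours Vsir was above every control tumour, and propranolol tumour 3 was below them all. The log2 fold change was 0.43 (SE 0.25; edgeR, adjusted p = 0.999). Vsir lies within Cdh23 of the opposite strand, and that gene had only 4 to 36 counts per tumour against 544 to 1412 for Vsir.

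Cd276, the gene of B7-H3 (ENSMUSG00000035914), stood at 19.4, 26.3, 29.9 and 30.5 CPM in control tumours 1 to 4 and at 15.8, 21.6, 31.1 and 15.5 CPM in propranolol tumours 1 to 4. Propranolol tumours 1 and 4 were below every control tumour and propranolol tumour 3 above them all. Its log2 fold change was -0.34 (SE 0.24; edgeR, adjusted p = 0.999). With the replicate block it was -0.37 (SE 0.16) with an unadjusted p of 0.0474 and an adjusted p of 0.929, and Cd276 was lower in 3 of 4 number pairs.

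**Figure D2:**
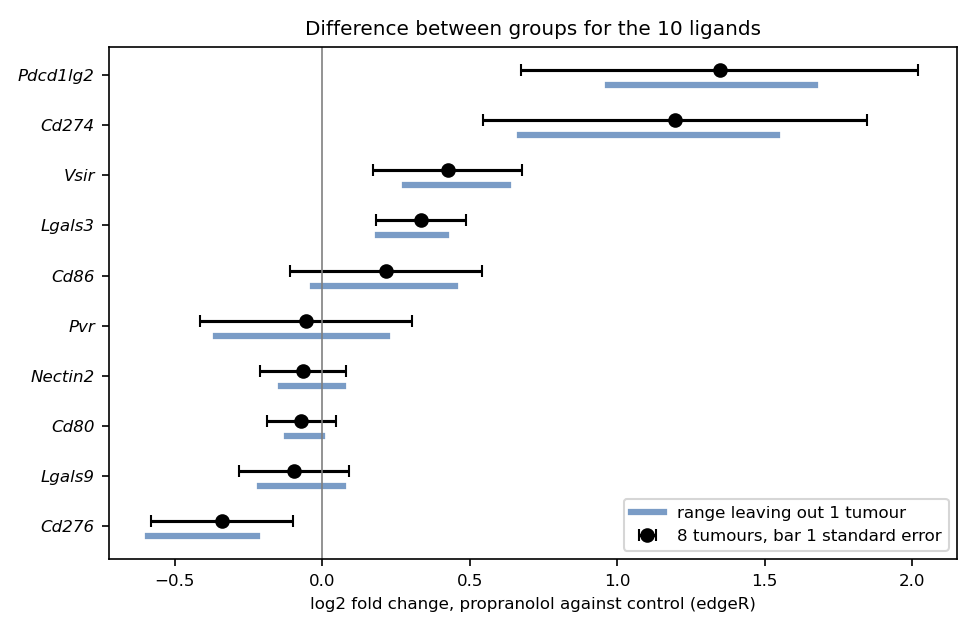
Log2 fold change of each ligand transcript, propranolol against control, with 1 standard error (black), and below it the range over the 8 fits that each leave out 1 tumour (blue). Pdcd1lg2 at 1.35 and Cd274 at 1.20 have the widest errors, and the range crosses or touches 0 for Cd86, Pvr, Nectin2, Cd80 and Lgals9.

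Single propranolol tumours weighed on several of these values, in both directions. Without propranolol tumour 3, whose T cell score was the lowest of the 8 at -2.05, the log2 fold changes were 1.54 for Cd274, 0.63 for Vsir and -0.59 for Cd276. In that fit 4 of the 10 ligands, Pdcd1lg2, Cd274, Vsir and Cd276, had an unadjusted p under 0.05 (edgeR). So did 1017 genes, of 14133 in the deposited table. With all 8 tumours 0 ligands and 273 genes (1.95%) did. The count thus rose among all genes too, to a smaller share than among the ligands. Whether the ligands rose beyond other genes was not tested. In the fit without propranolol tumour 3, 0 ligands and 0 genes passed the adjusted threshold (edgeR, smallest adjusted p 0.640). Without propranolol tumour 4 the log2 fold change was 0.67 for Cd274, 0.97 for Pdcd1lg2, 0.28 for Vsir and -0.22 for Cd276, and without propranolol tumour 1 it was 1.0, 0.99, 0.28 and -0.22. For Cd274 it was also lower with the replicate block (0.80) and in limma-voom (0.74). The coefficient of variation was larger in propranolol than in control tumours for 7 of the 10 ligands and for 58.5% of all tested genes.

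The ratios of ligands that share a receptor overlapped between the groups and varied much between tumours. Cd274 exceeded Pdcd1lg2 in FPKM by 22.4, 7.60, 7.16 and 42.4 times in control tumours 1 to 4 and by 10.2, 17.4, 7.87 and 13.7 times in propranolol tumours 1 to 4. The difference of the log2 ratio, taken with 0.1 FPKM added, was -0.26 (exact two-sided permutation p = 0.714, adjusted over the 3 ratios 1.0), and its sign turned to 0.11 with 1 FPKM added. The log2 ratio of Cd80 to Cd86 was 0.72, 0.74, 1.15 and 1.21 in control tumours 1 to 4 and -0.02, 0.94, 1.87 and 0.36 in propranolol tumours 1 to 4, a difference of -0.17 (exact permutation p = 0.714, adjusted 1.0). The log2 ratio of Pvr to Nectin2 spanned -0.06 to 1.84 in the control group and 0.15 to 1.58 in the propranolol group, with a difference of -0.01 (exact permutation p = 1.0, adjusted 1.0). The smallest p that 4 against 4 allows is 0.0286.

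**Figure D3:**
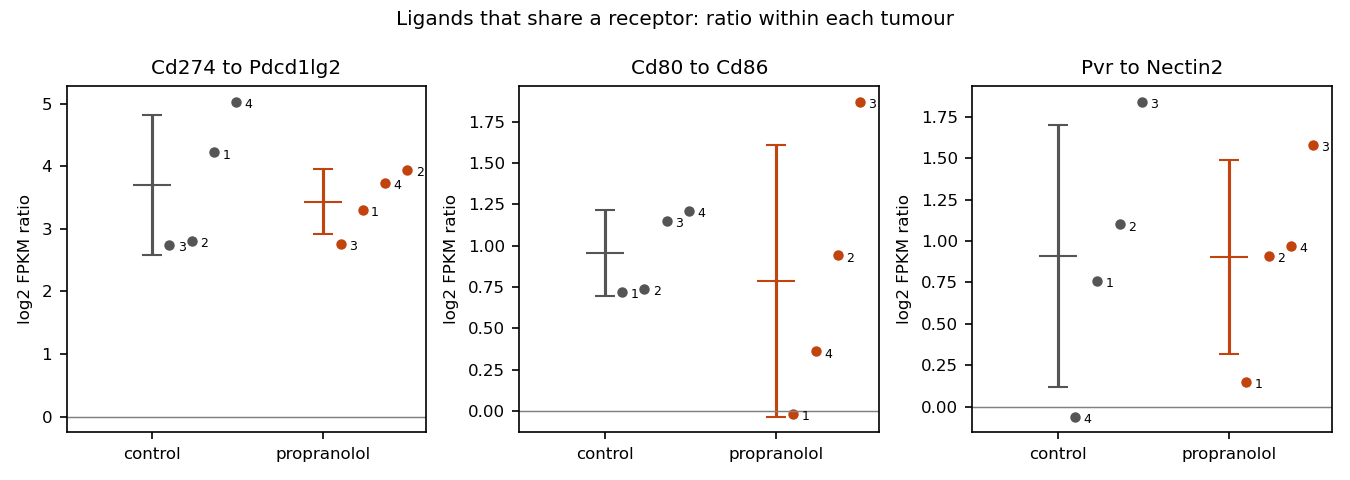
Log2 ratio of FPKM (0.1 added to each) within each tumour for 3 pairs of ligands that share a receptor; points are tumours with their number, the horizontal mark is the group mean and the bar 1 SD. The groups overlap in each panel, with propranolol tumours of Cd80 to Cd86 spread from -0.02 to 1.87.

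The receptor genes of these ligands were fitted above 0 throughout, without passing the threshold. Of 10 receptor genes, 9 were tested (Igsf11 was not in the table) and 9 had a log2 fold change above 0, against 49.4% of all genes. The median was 1.26 against -0.002 for all genes, and 0 passed (edgeR, each adjusted p = 0.999). At an unadjusted p under 0.05 edgeR gave 1 of the 9, Lag3, against 1.95% of all genes. The mean of these receptor genes had r = 0.99 with the T cell score over the 8 tumours, so their signs are not separate observations. The inhibitory receptor genes Pdcd1 (PD-1), Lag3, Havcr2 (TIM-3) and Cd96 were at 2.05 (SE 1.04), 1.85 (SE 0.79), 1.04 (SE 0.59) and 1.80 (SE 0.84). Pdcd1 stood at 22.0 and 15.6 CPM in propranolol tumours 1 and 4, where its ligand Cd274 was also highest, and at 0.493 CPM in propranolol tumour 3, where Cd274 was lowest. The activating receptor genes Cd28 and Cd226 were at 1.26 (SE 0.76) and 1.66 (SE 0.96), and Selplg, which encodes a selectin ligand that VISTA has been described to bind, at 0.72 (SE 0.48). Ctla4 and Tigit were at 0.17 (SE 0.87) and 0.09 (SE 0.23). Tigit was the steadiest of the receptors, between 8.93 and 17.3 CPM, and its highest value was in propranolol tumour 4.

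Of 24 other checkpoint and costimulatory ligand genes 15 were tested, 10 of them with a log2 fold change above 0 and a median of 0.17, and 0 passed. The 4 with the smallest p were Cd24a, an anti-phagocytic surface protein (1.20, SE 0.70), Cd40, the antigen-presenting cell's receptor for T cell help (1.14, SE 0.69), Fgl2, a secreted immunosuppressive protein (1.13, SE 0.83), and Tnfrsf14, the partner of the inhibitory receptor BTLA (0.61, SE 0.53).

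Across the 8 tumours of both groups, Cd274, Vsir and Cd86 had positive and Pvr and Cd276 negative relations to immune list scores that passed the test, and the other 5 ligands had none that did. Scores of 5 gene lists without these ligands (the mean over genes of log2 CPM minus the gene's own mean) were set against the log2 CPM of each ligand, 50 relations in all. Of these, 13 passed an exact permutation test of Pearson's r after Benjamini-Hochberg adjustment over the 50, 8 of them positive and 5 negative, and 3 passed with Spearman's rho as well. That test takes the 8 tumours as exchangeable, although same-numbered tumours deviated together. With number pairs permuted whole and tumours swapped within pairs (384 permutations, whose smallest p is 0.0026; an alternative chosen after seeing the data), 10 of the 50 passed, 7 of them among the 13: Cd274 with the T cell and interferon gamma response scores, Vsir with these and the macrophage score, and Cd276 with the T cell and macrophage scores. The T cell score itself moved with the interferon gamma response score (r = 0.97), the dendritic cell score (r = 0.92) and the macrophage score (r = 0.86), so relations to these lists are not separate observations. The fibroblast score, with r of 0.07 to the T cell score, gave 0 relations past the threshold. The number of relations past it was between 1 (without propranolol tumour 3) and 18 (without control tumour 4) when 1 tumour was left out. It was 4 without control tumour 2, 3 without propranolol tumour 1 and 6 without propranolol tumour 2. It was 7 without control tumour 1 or without control tumour 3, and 11 without propranolol tumour 4. Each leave-out had 7 tumours and the same, smaller number of permutations, so the count also depended on which tumour was left out. Only the relation of Cd274 to the interferon gamma response score passed in every leave-out.

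Cd274 rose with the interferon gamma response score with r = 0.97 (exact permutation p = 4.96e-05, adjusted 0.00248) and rho = 0.98 (exact permutation p = 3.97e-04, adjusted 0.0198, n = 8). Without the tumours farthest from the median score, propranolol tumours 3 and 4, r was 0.97, and it was 0.96 within control and 0.98 within propranolol tumours. Its relation to the T cell score had r = 0.95 (exact permutation adjusted p = 0.00992) and rho = 0.88 (adjusted 0.0595), and r was 0.66 within control tumours, 0.99 within propranolol tumours and 0.89 without propranolol tumours 3 and 4.

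Vsir followed the T cell score with r = 0.97 (exact permutation p = 3.97e-04, adjusted 0.00992) and rho = 0.95 (exact permutation p = 0.00114, adjusted 0.0285). Without propranolol tumours 3 and 4 r was 0.94, and it was 0.87 within control and 1.0 within propranolol tumours. Its r was 0.94 with the interferon gamma response score (exact permutation adjusted p = 0.014) and 0.87 with the macrophage score (exact permutation adjusted p = 0.0307), with rho of 0.86 and 0.83 that did not pass (adjusted 0.0595 and 0.0769), and within control tumours r with the interferon gamma response score was 0.45. Cd86 rose with the macrophage score with r = 0.83 (exact permutation adjusted p = 0.0455; rho = 0.86, adjusted 0.0595), but r was 0.62 without propranolol tumours 1 and 3 and 0.46 within control tumours, and it did not pass with pairs permuted whole (exact permutation adjusted p = 0.0543).

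Cd276 fell as the T cell score rose, with r = -0.89 (exact permutation p = 0.00419, adjusted 0.0307) and rho = -0.93 (exact permutation p = 0.00223, adjusted 0.0372). Without propranolol tumours 3 and 4 r was -0.82, and it was -0.51 within control and -1.0 within propranolol tumours. Against the macrophage score r was -0.90 (exact permutation adjusted p = 0.0154; rho = -0.88, adjusted 0.0595). Pvr also ran against the T cell score, with r = -0.83 (exact permutation adjusted p = 0.0455; rho = -0.76, adjusted 0.131), at -0.95 within control, -0.92 within propranolol and -0.89 without propranolol tumours 3 and 4. With pairs permuted whole it did not pass (exact permutation adjusted p = 0.0891): r was -0.99 between the means of the 4 pairs and -0.05 between the differences within them. The other relations that passed were those of Pvr to the interferon gamma response score (r = -0.83, exact permutation adjusted p = 0.0455; rho = -0.81, adjusted 0.0838) and of Cd274, Vsir and Pvr to the dendritic cell score, with r of 0.84, 0.84 and -0.83 (exact permutation adjusted p = 0.0455, 0.0455 and 0.0498) and rho of 0.86, 0.86 and -0.81 (adjusted 0.0595, 0.0595 and 0.0838). These 4 did not pass with pairs permuted whole (exact permutation adjusted p = 0.0891, 0.0744, 0.0543 and 0.167).

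Relations of Cd80, Nectin2, Lgals9, Lgals3 and Pdcd1lg2 to the 5 scores did not pass when tumours were permuted freely. With pairs permuted whole, that of Pdcd1lg2 to the macrophage score passed (r = 0.59, exact permutation adjusted p = 0.026), as did those of Cd86 to the T cell score (r = 0.80, adjusted 0.0391) and Cd276 to the dendritic cell score (r = -0.81, adjusted 0.0372). Cd80 and the T cell score had r = -0.72 (exact permutation p = 0.0449, adjusted 0.107; rho = -0.71, adjusted 0.144). Nectin2 and the T cell score had r = -0.04 (exact permutation adjusted p = 0.955; rho = -0.19, adjusted 0.738). For Pdcd1lg2 and the interferon gamma response score r was 0.58 over the 8 tumours (exact permutation adjusted p = 0.214; rho = 0.36, adjusted 0.526), and it was -0.99 within the 4 control and 0.89 within the 4 propranolol tumours.

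**Figure D4:**
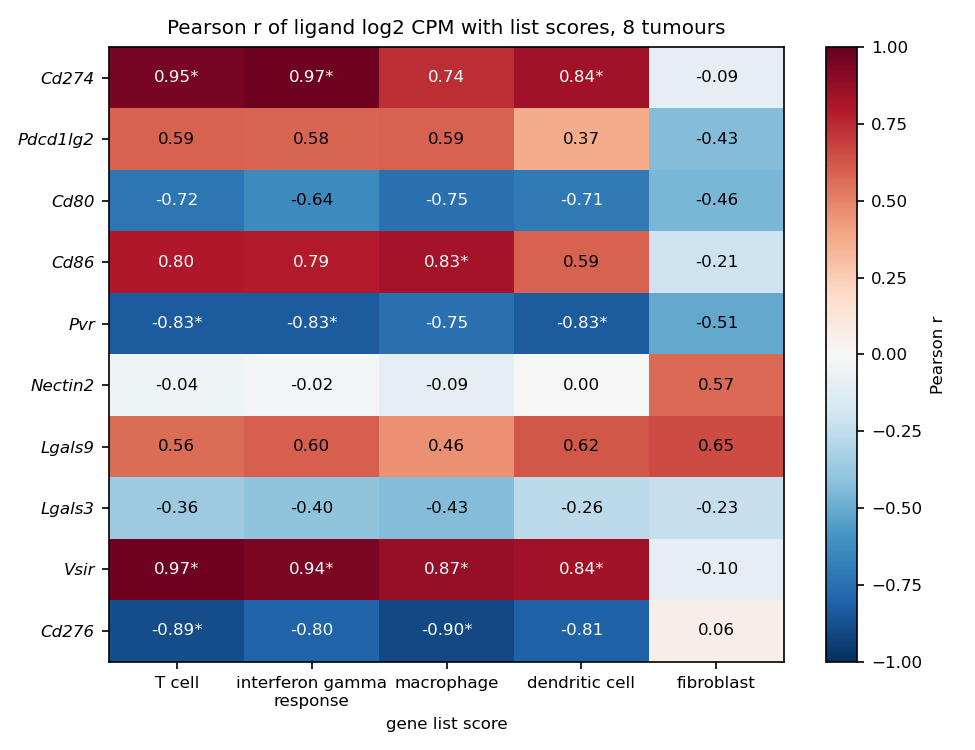
Pearson r over the 8 tumours between the log2 CPM of each ligand (rows) and the score of each gene list (columns), written in each cell and shown by colour; an asterisk marks an exact permutation p under 0.05 after adjustment over the 50 relations. For the 4 immune lists Cd274, Pdcd1lg2, Cd86, Lgals9 and Vsir are positive, Cd80, Pvr, Lgals3 and Cd276 negative, and Nectin2 is near 0. Of these, Cd274, Cd86, Vsir, Pvr and Cd276 carry asterisks.

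**Figure D5:**
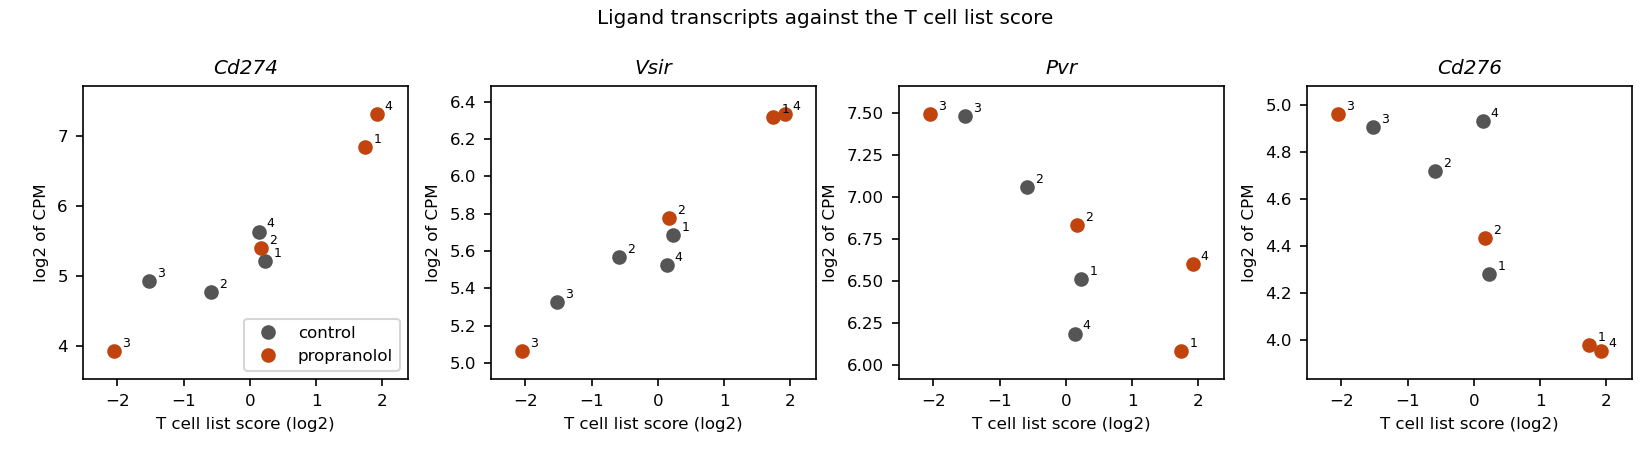
Log2 of CPM of 4 ligand transcripts against the T cell list score, for control (grey) and propranolol (orange) tumours with their numbers. Over the 8 tumours r is positive for Cd274 and Vsir and negative for Pvr and Cd276, with propranolol tumour 3 at the low end of the score and propranolol tumours 1 and 4 at the high end; whether the groups differ in slope was not tested.

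Among the 45 pairs of ligands, 3 passed the same test, and 0 of the 45 did with number pairs permuted whole (exact permutation adjusted p = 0.0586, 0.0586 and 0.0639 for these 3). Vsir and Cd276 ran against each other with r = -0.93 (exact permutation p = 4.22e-04, adjusted 0.019) and rho = -0.95 (adjusted 0.0257), at -0.79 without propranolol tumours 1 and 4, -0.80 within control and -1.0 within propranolol tumours. Pvr and Lgals9 did so with r = -0.91 (exact permutation p = 0.00251, adjusted 0.0376) and rho = -0.95 (adjusted 0.0257), and r was -0.89 without control tumour 3 and propranolol tumour 3 and -0.95 in each group. Cd274 and Vsir had r = 0.95 (exact permutation p = 0.00169, adjusted 0.0376), but rho was 0.81 (adjusted 0.163) and r within control tumours was 0.21. Leaving out 1 tumour gave between 0 (without control tumour 2, control tumour 3, propranolol tumour 1, propranolol tumour 3 or propranolol tumour 4) and 5 (without control tumour 4) pairs past the threshold, and 1 without control tumour 1 or propranolol tumour 2.

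The genes most alike to each ligand over the 8 tumours, among 11465 genes with a mean log2 CPM of at least 1 and leaving out predicted genes with Gm and Rik names, are given as a description. The values are the highest of many, and the genes share libraries and depth. For Cd274 they were Sla2, an adaptor of T cell receptor signalling (r = 0.99), Gbp10, an interferon-induced GTPase with close copies (0.99), and H2-M3, a class I molecule (0.99). For Vsir they were Cracr2a, a calcium channel regulator (0.99), Cd8a, a co-receptor chain of cytotoxic T cells (0.99), and Birc3, an inhibitor of apoptosis (0.98). For Cd86 they were the mast cell tryptase Tpsab1 (0.96), the kinase gene Map3k8 (0.95) and Naip6, an inflammasome sensor (0.94), and for Pdcd1lg2 the cytokine receptor kinase gene Jak2 (0.95), Timp3 (0.94) and Tut4 (0.94).

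For Pvr the closest were the cytokine gene Il11 (0.99), the MAP kinase gene Mapk3 (0.99) and Hbegf, an EGF receptor ligand (0.98), and for Cd276 the uridine kinase gene Uck2 (0.98), the phosphatase gene Ptpn21 (0.98) and the nuclear lamin gene Lmna (0.97). Cd80 was closest to Zfp655 (0.97), Mpp5 (0.97) and Ptgs2, the inducible prostaglandin synthase (0.96). Lgals3 was closest to the hexokinase gene Hk1 (0.96), Pafah1b3 (0.96) and Renbp (0.92), Lgals9 to Pop5 (0.97), Dynlt1b (0.96) and Arl6ip4 (0.95), and Nectin2 to Npm3 (0.97), Ccdc85c (0.97) and Cpsf4 (0.95).

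The other lists are given with their counts. All 20 interferon gamma response genes had a fitted log2 fold change above 0 (median 1.0), as had 17 of 17 T cell markers (median 1.42), 13 of 15 macrophage markers (median 0.30), 11 of 14 dendritic cell markers (median 0.40), 7 of 7 NK cell markers (median 1.18), 4 of 5 B cell markers (median 0.88) and 3 of 4 neutrophil markers (median 0.39). So had 6 of 11 fibroblast markers (median 0.01), 3 of 9 endothelial markers (median -0.08), 2 of 4 colon epithelial markers (median -0.09), 0 of 8 skeletal muscle markers (median -3.35), 0 of 5 erythroid markers (median -1.16) and 1 of 12 mitochondrially encoded genes (median -0.19). Of all genes, 49.4% were above 0. The T cell and interferon gamma response scores had r = 0.97 with each other, so signs in these lists are not separate observations. Both scores were highest in propranolol tumours 4 (1.91 and 1.68) and 1 (1.74 and 1.53). Both were lowest of all 8 in propranolol tumour 3 (-2.05 and -2.23). In these lists 0 members passed (edgeR). An unadjusted p under 0.05 was found for 1.95% of all genes. It was found for 3 of 5 erythroid markers, 2 of 17 T cell markers, 1 of 20 interferon gamma response genes and 1 of 12 mitochondrially encoded genes. The remaining lists of this paragraph had 0. Over the 8 tumours the NK cell, B cell and neutrophil scores had r of 0.98, 0.94 and 0.88 with the T cell score and the colon epithelial score -0.84, given as a description. The erythroid score was highest in control tumour 4, at 1.77. Summed interferon gamma response transcripts lay between 1451 and 3581 CPM in control and between 572 and 8337 CPM in propranolol tumours. Macrophage markers summed to 2933 to 4295 and 2781 to 5974 CPM, and fibroblast markers to 3327 to 4837 and 3509 to 4383 CPM. The mitochondrially encoded transcripts summed to 17730 to 23680 CPM in the control group and 13140 to 20870 CPM in the propranolol group. Whether these sums reflect RNA quality or cell makeup was not tested. The part of cell makeup and of RNA quality in the values of the ligands was not tested.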

How the data were processed

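Per the file headers, the authors' deposited table gives for each gene a raw read count and an FPKM value in every tumour, and the authors' log2 fold change, p-value and adjusted p-value for propranolol against control. The tools and build in the submitters' processing notes are GRCm39, featureCounts 1.6.2, HISAT2 2.1.0, fastp 0.19.3, StringTie 1.3.4d, edgeR 3.24.3 and DESeq2 1.22.1, with no role given. Here counts were tested with edgeR 4.0.16 (R 4.3.3): quasi-likelihood F test, TMM, filterByExpr (14006 of 14133 genes kept), robust dispersions and Benjamini-Hochberg adjustment over all tested genes at 0.05. The standard error is the log2 fold change over the square root of F. List scores use log2 CPM with a prior count of 2. DESeq2 1.42.0, limma-voom (limma 3.58.1), RLE scaling, unscaled library totals, no filter, the replicate block and leaving out each tumour were alternatives. Correlations were tested by exact permutation of the 8 tumours, and as an added alternative with number pairs kept together. The labels give both groups the numbers 1 to 4. Deviations from the group means of same-numbered tumours correlated at 0.190, 0.311, 0.508 and 0.277. In 2 of the 4 number pairs both tumours correlated best with their own number. On that basis the numbers were read as pairs from the data, without a label that says so. In simulated counts over 14006 genes for this comparison, edgeR recovered 59% of 100 genes changed 2-fold and 86% of 100 changed 4-fold. It called 0.0869% of 13806 unchanged genes. The simulation drew each gene independently and picked the changed genes at random, so these shares do not give the power for the ligands. Copies of a library were looked for over all pairs of libraries, and the smallest chi-square per degree of freedom was 9.05, where copies would give about 1. Named genes are the 10 ligands, their receptors, up to 4 genes with the smallest p per list and the 3 most alike genes per ligand; not all are printed. Members and lists were chosen with earlier results of these data known.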

Additional observations from a re-analysis of the deposited data

Results flagged for a closer look

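Nectin2 in propranolol tumour 4, at 28.1 CPM, lay apart from the other 3 propranolol tumours (34.1 to 34.9 CPM): its gap to the nearest made up 0.887 of the group's range, above Dixon's critical value for 4 samples. It was the single such value among 44 groups looked at (10 ligands, 9 receptors and 3 ratios in 2 groups each), where chance gives about 1 in 20. The value was close to the lowest control tumour.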

How the results depend on the processing

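No alternative brought any ligand, or any of the tested genes, past the adjusted threshold: the count was 0 in edgeR with RLE scaling, with library totals, without the filter and with the replicate block, in DESeq2 (337 genes at an unadjusted p under 0.05) and limma-voom (249), and 0 in each fit leaving out 1 tumour. The replicate block in edgeR changed no call. Leave-out ranges of the log2 fold change that include a turn of sign were -0.12 to 0.00 for Cd80, -0.03 to 0.45 for Cd86, -0.36 to 0.22 for Pvr, -0.14 to 0.07 for Nectin2 and -0.21 to 0.07 for Lgals9; Cd274 (0.67 to 1.54), Pdcd1lg2 (0.97 to 1.67), Lgals3 (0.19 to 0.42), Vsir (0.28 to 0.63) and Cd276 (-0.59 to -0.22) kept theirs in these fits. The log2 ratio difference of Cd274 to Pdcd1lg2 turned to 0.11 with a pseudocount of 1 FPKM (leave-out range -0.58 to 0.18); those of Cd80 to Cd86 (-0.52 to 0.10) and Pvr to Nectin2 (-0.33 to 0.30) also turned when 1 tumour was left out, and the cause was not tested. With the number pairs as a block, an exact sign-flip test has no p below 0.125. Relations past the threshold, 13 of 50 and 3 of 45, ranged from 1 to 18 and from 0 to 5 when 1 tumour was left out, where fewer tumours allow fewer permutations; with number pairs permuted whole (replicate block) they were 10, of which 7 among the 13, and 0; r kept its sign in each leave-out, and FPKM and RLE scaling left both counts within 1.5 times. At 11 to 108 counts, depth limits Pdcd1lg2.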
